A study of Mus musculus with 24 samples.

Results

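The 10 genes described here are known as markers of the endothelial cells that line brain blood vessels, and they were taken by symbol from a table of normalized read counts that lists 54658 genes in 24 libraries of embryonic mouse cortex and cortical cultures. They comprised the VEGF receptors Kdr, Flt1 and Flt4, the receptor kinases Tie1 and Tek, the junction genes Cldn5, Cdh5, Pecam1 and Esam, and the lipid transporter Mfsd2a. All 10 were listed, and each had reads in all 12 cortex libraries.

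The study compared Cep135 (-/-) embryos, which carry the Cep135(Δ8) allele on both chromosomes and are called mutants here, with Cep135 (+/+) controls from matings of heterozygotes. Cep135 encodes a protein of the centriole, and the allele was made by CRISPR in the germ line, so that blood vessels carried it as well as neural cells. Dorsal telencephalon was taken at E11.5, counted in embryonic days, from 3 mutants (A, B and C) and 3 controls (D, E and F) whose titles carry 2 prefixes, and at E14.5 from 3 mutants (1, 2 and 6) and 3 controls (3, 4 and 5) whose titles share 1 other prefix. Cells of the 6 E14.5 embryos were also dissociated and grown in suspension for 12 h and 24 h as incipient neurospheres, floating cultures in a medium with EGF and FGF2 that favors neural progenitors, which gave 3 mutant and 3 control libraries at each time from the same embryos.

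Blood vessels grow into the embryonic cortex from the vessels that surround it. VEGF made by neural cells acts through Kdr (VEGFR2), the main signaling receptor of endothelial cells, whereas Flt1 (VEGFR1) binds VEGF with high affinity and limits what reaches Kdr, and Flt4 (VEGFR3) is the receptor for VEGF-C. Angiopoietins act through Tek (Tie2), with Tie1 as its partner. Cdh5 (VE-cadherin) forms the adherens junctions between endothelial cells, Pecam1 and Esam are adhesion molecules of the same contacts, Cldn5 seals the tight junctions of the blood-brain barrier, and Mfsd2a carries lysophospholipids with docosahexaenoic acid across that barrier and restrains transcytosis.

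The RefSeq promoters of 5 of the genes are shown because Cldn5 went the other way from the VEGF receptors Kdr, Flt1 and Flt4 between the ages, and Mfsd2a stood apart in culture. Each runs from 250 bases before to 50 bases after the annotated start in GRCm38.p6, is written along the gene's strand, and has the ETS-type letters AGGAAG, or CTTCCT where they lie on the opposite strand, in capitals where present, which among these is Flt1.
Kdr (chr5:75978406-75978705, reverse strand): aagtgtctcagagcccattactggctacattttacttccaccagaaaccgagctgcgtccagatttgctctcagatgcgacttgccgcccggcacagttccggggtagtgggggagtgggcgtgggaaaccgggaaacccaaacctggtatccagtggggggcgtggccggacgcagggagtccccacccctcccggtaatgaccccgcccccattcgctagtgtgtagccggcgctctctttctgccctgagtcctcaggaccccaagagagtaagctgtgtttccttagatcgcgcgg
Flt1 (chr5:147725962-147726261, reverse strand): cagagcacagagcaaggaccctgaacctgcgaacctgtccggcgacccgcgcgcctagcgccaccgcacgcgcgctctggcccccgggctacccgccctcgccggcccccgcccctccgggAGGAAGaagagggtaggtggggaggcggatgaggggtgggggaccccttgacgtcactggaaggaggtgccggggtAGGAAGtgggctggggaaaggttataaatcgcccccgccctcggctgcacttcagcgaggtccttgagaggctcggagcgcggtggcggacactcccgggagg
Flt4 (chr11:49609429-49609728, forward strand): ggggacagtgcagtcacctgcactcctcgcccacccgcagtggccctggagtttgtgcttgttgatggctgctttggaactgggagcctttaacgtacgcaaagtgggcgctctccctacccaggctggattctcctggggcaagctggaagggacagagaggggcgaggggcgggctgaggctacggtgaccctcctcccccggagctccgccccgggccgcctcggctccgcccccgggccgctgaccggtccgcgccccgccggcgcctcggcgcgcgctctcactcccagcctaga
Cldn5 (chr16:18776597-18776896, forward strand): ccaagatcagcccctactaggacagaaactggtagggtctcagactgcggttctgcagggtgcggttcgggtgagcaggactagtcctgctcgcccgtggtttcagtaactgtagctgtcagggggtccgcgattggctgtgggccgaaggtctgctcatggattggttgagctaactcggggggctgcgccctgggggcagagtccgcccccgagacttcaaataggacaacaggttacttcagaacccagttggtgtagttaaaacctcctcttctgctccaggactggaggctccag
Mfsd2a (chr4:122961139-122961438, reverse strand): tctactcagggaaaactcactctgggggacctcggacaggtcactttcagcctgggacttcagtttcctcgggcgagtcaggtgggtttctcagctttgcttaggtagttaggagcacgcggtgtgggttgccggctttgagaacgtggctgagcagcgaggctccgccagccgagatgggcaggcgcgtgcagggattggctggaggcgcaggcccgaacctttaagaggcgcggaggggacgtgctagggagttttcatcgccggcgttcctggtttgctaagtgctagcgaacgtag
Promoters were at hand for 7 of the 10 genes (Kdr, Flt1, Flt4, Tie1, Tek, Cldn5 and Mfsd2a). AGGAAG was found on either strand in 2 of the 7, Flt1 (at -129 and -53 from the start) and Tie1 (at -219 and 34, both on the opposite strand), and in 35.4% of all 32851 promoters of this length. The forkhead letters TGTTTAC, searched on both strands and sharing no stretch with the ETS letters, were in 0 of the 7 and in 3.65% of all promoters. These matches describe the windows only.

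Libraries held 4732781 to 11645213 reads on genes. Values are reads divided by a size factor of each library, and since QuantSeq reads only the 3′ end of a transcript, levels are compared between libraries and not between genes. At 24 h the 3 mutant libraries were deeper (7903426 to 11645213 reads) than the 3 control libraries (4732781 to 5709443 reads). Gm42418, a gene model that overlaps ribosomal RNA, took 6.11% to 16.7% of the summed values in the cortices and 10.7% to 34.8% in the 12 h cultures. At 24 h its share was 20.5% to 23.0% in mutants and 6.26% to 13.9% in controls, which do not overlap, and its part in the results was not tested. Cep135 itself did not pass the test in any genotype comparison (log2 fold changes of -0.15 to 0.15), but its 3′ reads lie outside the deleted bases of exon 2 and do not check the genotype. Of the 12 embryos, 5 were female and 7 were male by their own transcripts, and the 3 E14.5 controls were all male.

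In the cortex, the 10 genes did not change alike between E11.5 and E14.5. Cldn5 was higher at the later age, and 5 genes were lower: Kdr, Flt1 and Flt4, which are the 3 VEGF receptors, together with Cdh5 and Pecam1. Tie1, Tek, Esam and Mfsd2a did not pass the test. Of all 13650 genes tested, 53.1% passed the same threshold (23.8% higher and 29.3% lower), so that 6 of 10 was near the background. The test was limma on log2(normalized read count + 1) in the 12 cortices with genotype as a covariate, at an adjusted p under 0.05. The 2 ages share no title prefix, so age and whatever a prefix stands for, which the labels do not say, cannot be told apart in these values.

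Cldn5 had 45.3, 49.3 and 49.0 normalized reads in E11.5 controls D, E and F and 34.2, 51.3 and 41.8 in mutants A, B and C. At E14.5 it had 108, 95.1 and 138 in controls 3, 4 and 5 and 115, 124 and 114 in mutants 1, 2 and 6. All 6 E14.5 libraries were above all 6 E11.5 libraries, and the log2 fold change was 1.34 (SE 0.14, adjusted p = 6.4e-07).

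Cdh5, the cadherin of the same contacts, moved the other way. It had 127, 97.0 and 130 normalized reads in E11.5 controls and 128, 134 and 144 in E11.5 mutants. The E14.5 values were 78.8, 77.7 and 77.6 in controls and 92.6, 88.3 and 72.0 in mutants. The 2 ages did not overlap, and the log2 fold change was -0.63 (SE 0.11, adjusted p = 0.00022). Within a library, the Cldn5 value divided by the Cdh5 value was therefore 0.266 to 0.509 (median 0.367) in the 6 E11.5 cortices and 1.22 to 1.78 (median 1.39) in the 6 E14.5 cortices, a quantity that the size factor does not affect.

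Kdr had 478, 513 and 462 normalized reads in E11.5 controls and 652, 519 and 560 in E11.5 mutants. At E14.5 it had 365, 372 and 450 in controls and 400, 433 and 398 in mutants. No E14.5 library reached the lowest E11.5 library, and the log2 fold change was -0.39 (SE 0.09, adjusted p = 0.0015). Flt1, its decoy relative, ranged from 155 to 206 at E11.5 and from 105 to 162 at E14.5, which overlap, with a log2 fold change of -0.49 (SE 0.11, adjusted p = 0.0011). Flt4 was at 23.4 to 38.1 normalized reads at E11.5 and 10.9 to 22.1 at E14.5, and fell by 0.74 on the log2 scale (SE 0.23, adjusted p = 0.012). In all, 4 of the 10 genes did not overlap between the ages (Cldn5 higher, and Cdh5, Kdr and Flt4 lower), against 30.5% of all genes tested (15.5% higher and 14.9% lower).

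Pecam1 ranged from 114 to 224 at E11.5 and from 119 to 161 at E14.5. Its log2 fold change was -0.41 (SE 0.15, adjusted p = 0.031), and the call was lost when any of 6 libraries was left out (E11.5 control D, E11.5 mutants A and C, and E14.5 mutants 1, 2 and 6), with adjusted p up to 0.077. Tie1 differed by -0.31 on the log2 scale (SE 0.14, adjusted p = 0.079), Tek by -0.09 (SE 0.18, adjusted p = 0.71), Esam by -0.05 (SE 0.14, adjusted p = 0.81) and Mfsd2a by 0.37 (SE 0.21, adjusted p = 0.16).

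Other vascular genes were read from lists. Of 27 further endothelial genes tested, 13 were lower at E14.5 and 1 was higher, against 29.3% and 23.8% of all genes tested. The lower ones with the smallest p were Tal1, a transcription factor of blood and endothelial precursors (log2 fold change -2.29), the surface sialomucin Cd34 (-0.84) and Emcn (-1.36), and the higher one was the adhesion receptor Adgrl4 (0.53). The list's median log2 fold change was -0.46, that of the 10 genes -0.35 and that of all genes tested -0.08.

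Barrier and transport genes went in both directions, with 6 of 24 higher and 11 lower (median -0.72). Among all genes tested, 23.8% were higher and 29.3% lower. Plvap, the diaphragm protein of fenestrated and immature vessels, was at 66.8 to 143 normalized reads in the E11.5 cortices and 11.3 to 27.1 in the E14.5 cortices, a log2 fold change of -2.35 (SE 0.24, adjusted p = 6.6e-07). Slco1c1, a transporter of thyroid hormone, was at 0.645 to 7.81 and 23.2 to 56.5, a log2 fold change of 3.28 (SE 0.44, adjusted p = 1.2e-05). The filter used the mean over both ages, and every E11.5 value of Slco1c1 was under the level needed for the test. Slco1c1 was thus tested only through its E14.5 values, and the filter fixed its direction. No conclusion is drawn from its adjusted p or from its part in the count of higher genes. Spock2 (2.12) and the cationic amino acid carrier Slc7a1 (0.94) were also higher, and Lef1 (-1.08), a transcription factor of Wnt signaling, was also lower. Several of these genes are also expressed by other cortical cells.

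Of 10 mural genes, which mark the pericytes and smooth muscle around endothelium, 3 were higher and 4 lower. The background for each list here was 23.8% of all genes tested higher and 29.3% lower. The pericyte genes Rgs5 (2.24), Abcc9 (0.85) and Cspg4 (0.88) rose, and Notch3 (-1.60) and the smooth muscle genes Tagln (-2.82) and Acta2 (-1.67) fell. Of 10 genes of a list of VEGF and angiopoietin ligands, VEGF co-receptors, the apelin pair and Angptl4, the co-receptors Nrp1 (0.96) and Nrp2 (0.43) were higher, and Aplnr (-0.73), the apelin receptor, and Angptl4 (-0.72) were lower. Vegfa, the ligand of Kdr, was at 147 to 212 normalized reads at E11.5 and 107 to 201 at E14.5 and did not pass the test (-0.21, SE 0.13, adjusted p = 0.19). Angpt1, the activating ligand of Tek, did not pass either (-0.04, SE 0.14, adjusted p = 0.84), and Angpt2 stayed below the level needed for the test, at 3.39 to 14.1 in the 12 cortices. Of 12 genes of the Wnt7, Gpr124, Reck and Norrin pathway, through which neural cells instruct brain vessels, 1 was higher (Wnt7a, 1.04) and 8 were lower, among them Lef1, Axin2 (-0.95) and the Norrin receptor Fzd4 (-0.98). Of 13 tip cell and vascular Notch genes, 1 was higher (Cxcr4, 0.58) and 4 were lower, among them Unc5b (-0.88), Hey1 (-0.59) and Notch1 (-0.36).

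Genes of other cell types also moved between the ages. All 10 neuronal genes were higher at E14.5, 8 of 10 apical progenitor genes were lower, 9 of 11 meningeal genes were lower and 6 of 10 microglial genes were higher. Of all genes tested, 23.8% were higher and 29.3% lower. In bulk tissue, fewer cells of a type and less RNA per cell cannot be told apart, and the part of these shifts in the changes of the endothelial genes was not tested.

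**Figure D1:**
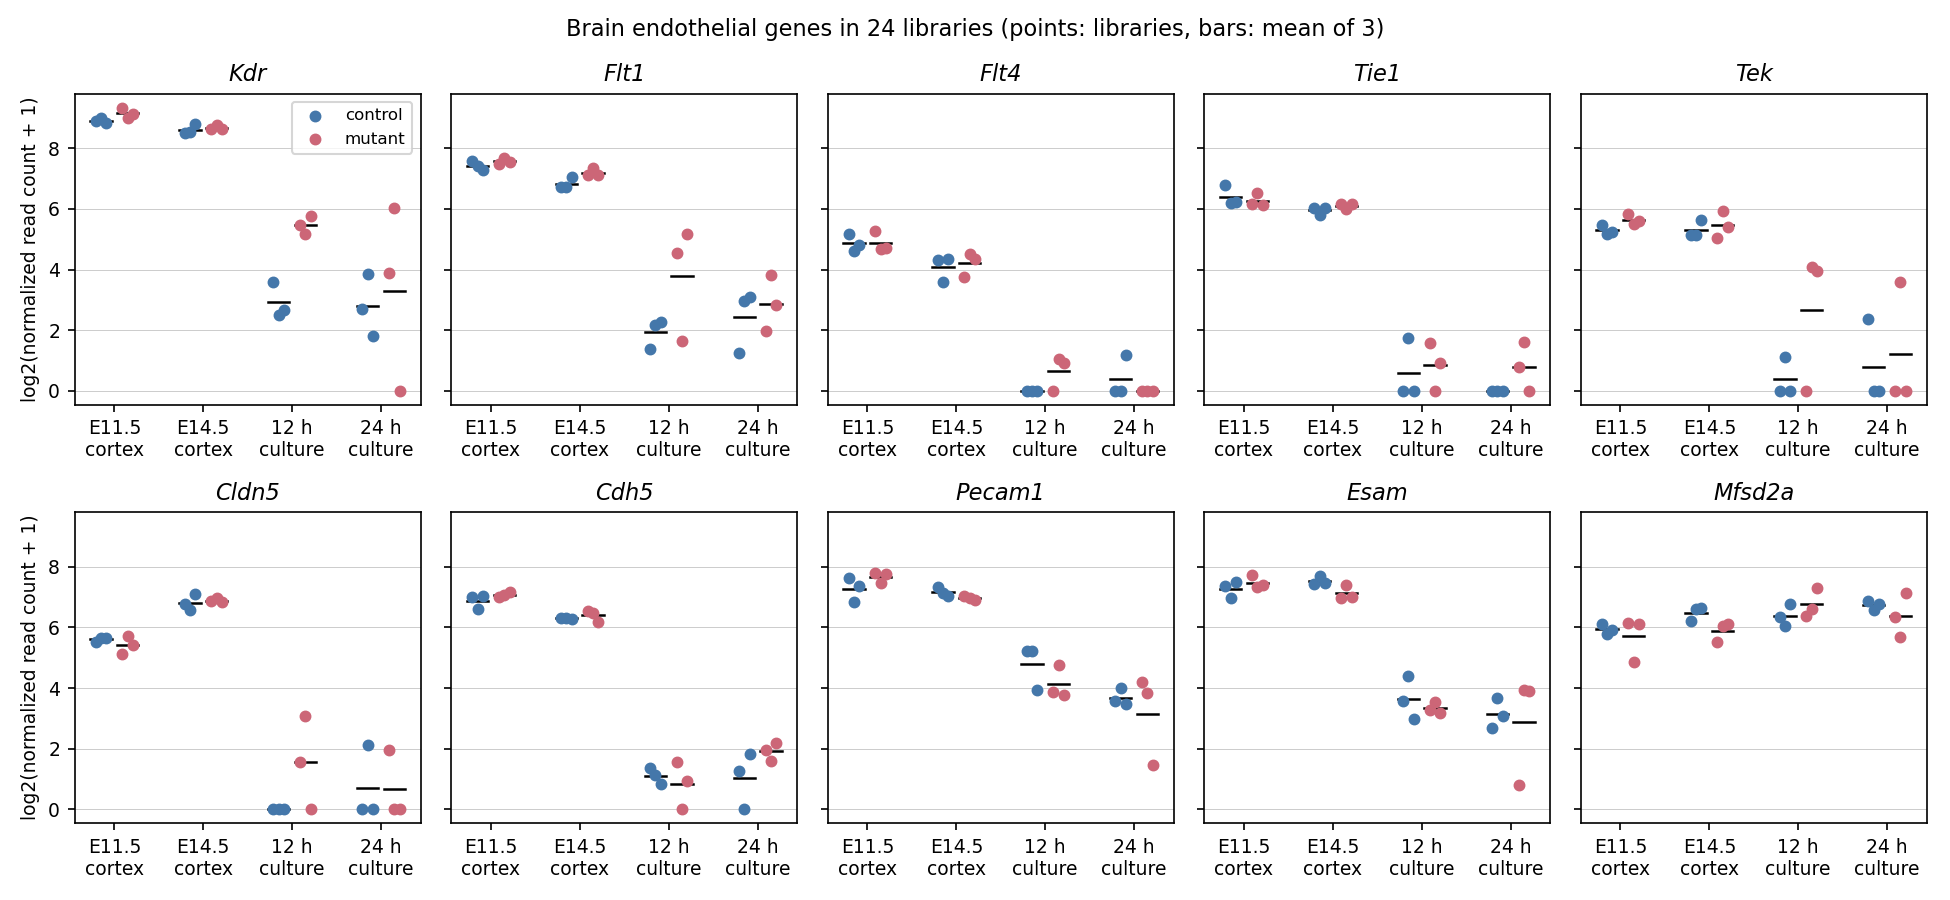
Level of each of the 10 genes in the 24 libraries. The vertical axis is log2(normalized read count + 1), the horizontal axis gives the stage, points are libraries (blue, control; red, mutant) and bars are means of 3 libraries. In cortex the points of both genotypes lie close on this scale, also for the genes whose groups do not overlap. In culture Flt4, Tie1, Cldn5 and Cdh5 lie near the bottom of the axis, and Tek runs from 0 to 15.8 normalized reads. Kdr, Flt1, Pecam1 and Esam lie mostly above the bottom, and Mfsd2a stays in the range of 50.6 to 159 normalized reads.

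In culture, most of the endothelial genes fell to a small share of their cortex level within 12 h. Of 9 genes tested, 8 were lower in the 12 h cultures than in the cortices of the same 6 embryos, and the exception was Mfsd2a. The background was 30.2% of 13601 genes (16.1% lower and 14.1% higher). The 8 genes also did not overlap between cortex and culture, being lower throughout, against 7.76% of all genes tested. The filter used the mean over cortex and culture together. Within the 12 h cultures alone, 5 of the 10 genes averaged 10 or more. Cldn5, Cdh5, Tie1 and Tek did not, so the filter fixed their direction, and no conclusion is drawn from their part in these counts. Flt4, which was under the filter, had 109 reads over the 6 cortices and 2 reads over the 6 cultures of 12 h.

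Cldn5 was at 0 in all 3 control cultures of 12 h and at 1.95, 7.37 and 0 normalized reads in mutants 1, 2 and 6. A count of 0 allows up to 3 reads, or 2.28 to 4.72 normalized reads in the 12 h libraries, for counting error only. Against that limit, Cldn5 was at least 22.9-fold, 27.0-fold and 60.5-fold lower than in the cortex of controls 3, 4 and 5. Cdh5 had 1.57, 1.17 and 0.759 in control cultures and 1.95, 0 and 0.896 in mutant cultures, which are 0 to 2 reads a library. Tie1 was at 0 in 3 of 6 cultures and nowhere above 2.35. With so few reads the fitted fold change depends on the pseudocount: Cldn5 was -6.09 on the log2 scale (SE 0.50, adjusted p = 3.1e-07) with 1, -8.40 with 0.1 and -4.29 with 5, and the 8 genes passed with all 3.

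The losses were unequal. Relative to its own embryo's cortex, Pecam1 kept 10.5% to 25.7% of its level at 12 h (median 16.0%), Esam 3.86% to 9.72%, Kdr 1.18% to 13.5%, Flt1 1.30% to 25.4% and Cdh5 0% to 2.11%. The log2 fold change was -2.61 for Pecam1 (SE 0.27, adjusted p = 3.2e-06), -3.84 for Esam (SE 0.25, adjusted p = 3.3e-08) and -5.39 for Cdh5 (SE 0.40, adjusted p = 1.0e-07). Pecam1 is also made by blood cells and Esam by some of them. The sum of the 9 genes other than Mfsd2a was 2.51% to 11.49% of the cortex at 12 h (median 7.08%) and 2.303% to 9.66% at 24 h (median 3.12%), lower in 6 of 6 embryos.

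Mfsd2a did not follow. It had 72.9, 96.5 and 98.5 normalized reads in the cortex of controls 3, 4 and 5 and 45.2, 65.1 and 68.1 in that of mutants 1, 2 and 6. At 12 h it had 80.2, 64.6 and 108 in the control cultures and 82.9, 95.8 and 159 in the mutant cultures. At 24 h it had 117, 94.4 and 109 in controls and 79.5, 50.6 and 139 in mutants. The cultures and the cortex overlapped, with a log2 fold change of 0.38 (SE 0.24, adjusted p = 0.24), and per embryo the 12 h culture held 66.9% to 233% of the cortex value (median 128%). Its reads in culture came from libraries in which Cldn5, Cdh5 and Tie1 were at or near 0. Pecam1, Esam and Kdr still had 14 to 31, 7 to 17 and 4 to 60 reads in the 12 h libraries. Because its level did not fall, Mfsd2a goes against the label of an endothelial gene in these cultures. Which cells its reads came from was not tested. Over the 24 libraries, the correlation of each gene with the mean of the other 9 was 0.895 to 0.982, apart from Mfsd2a at -0.56, a description over libraries that share the split between tissue and culture.

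**Figure D2:**
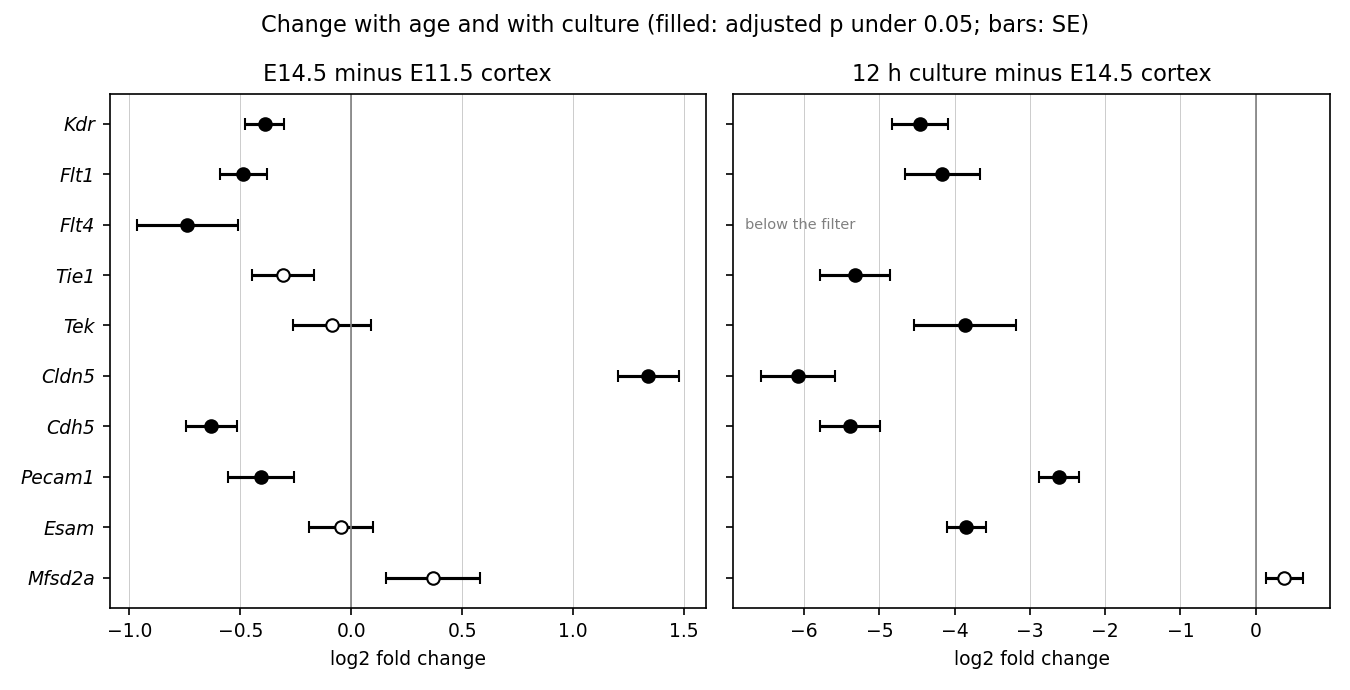
Change of each gene with age (left, E14.5 minus E11.5 cortex) and with culture (right, 12 h culture minus E14.5 cortex). The horizontal axis is the log2 fold change, bars are standard errors, filled points passed an adjusted p under 0.05 and Flt4 was below the filter on the right. Cldn5 is the filled point to the right of 0 in the age panel, and Mfsd2a is the open point at 0.38 in the culture panel.

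The other endothelial list was lower in culture as well. Of 24 tested, 23 were lower at 12 h, led by Cd93 (log2 fold change -5.87), Cd34 (-6.07) and Egfl7 (-3.74), with a median of -4.22 beside -4.16 for the 9 genes and -0.06 for all genes tested. Within the 12 h cultures alone, 7 genes of the list averaged 10 or more. For genes under that level, here and in the lists below, the filter fixed the direction. The background for these lists was 16.1% of all genes tested lower and 14.1% higher. Of 9 mural genes, 7 were lower, led by Rgs5 (-5.16), Abcc9 (-5.35) and Vtn (-3.72). All 10 microglial and all 9 meningeal genes tested were lower as well, whereas 8 of 10 erythroid genes were higher, their sum being 172% to 337% of the cortex per embryo. The liver list was higher in 5 of 6 embryos, but 0 of 9 genes tested passed with limma, 3 at an unadjusted p under 0.05 (median log2 fold change 2.43). It summed to 1.57 normalized reads in the 12 h culture of control 3 and to 205 to 1475 in the other 5 cultures. The part of the liver transcripts in the culture values of Mfsd2a was not tested.

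Barrier and transport genes were lower in 10 and higher in 4 of 23, against 16.1% and 14.1% of all genes tested. Foxq1 (-3.01), Itm2a (-2.78) and the efflux pump Abcg2 (-1.54) fell, and the transferrin receptor Tfrc (0.83), Slc7a1 (0.49) and Slc3a2 (0.64) rose. Of 11 genes of the list of ligands, co-receptors and the apelin pair, Vegfa (0.89, SE 0.15, adjusted p = 0.00041) and Angpt1 (0.58, SE 0.17, adjusted p = 0.020) were higher and 6 were lower, led by Aplnr (-5.02), Nrp1 (-0.89) and Apln (-2.68). Vegfa was at 107 to 201 normalized reads in the E14.5 cortices and 195 to 308 in the 12 h cultures, with its receptors Kdr and Flt1 at 4.70 to 53.7 and 1.57 to 34.9 in the same cultures. Angpt2, a Tek ligand that endothelial cells make, was at 4.70 to 32.6 at 12 h and did not pass (0.85, SE 0.49, adjusted p = 0.20). Of 10 genes of the Wnt7 and Norrin pathway, Ndp, which encodes Norrin, was higher (1.12) and 5 were lower, led by Wnt7b (-1.27), Axin2 (-0.98) and Lef1 (-0.90). Of 13 tip cell and vascular Notch genes, 9 were lower, led by Lxn (-2.10), Notch1 (-0.72) and Apln.

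From 12 h to 24 h, 3 of the 10 genes had enough reads to be tested and 0 passed with limma (0 also at an unadjusted p under 0.05) or with edgeR or DESeq2 on whole reads (0 and 1 at an unadjusted p under 0.05), where 0.292% of all genes did with limma. The log2 fold change was -1.15 for Kdr (SE 0.80, adjusted p = 0.69), -1.05 for Pecam1 (SE 0.51, adjusted p = 0.52) and -0.01 for Mfsd2a (SE 0.26, adjusted p = 0.99).

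The study asked what loss of Cep135 does to the developing cortex, and of the 10 genes, none of those with enough reads to be tested passed between mutants and controls in any of the 4 sample types. At E11.5 0 of 10 passed with limma, and 0 had an unadjusted p under 0.05, where 0.0149% of 13406 genes were called. At E14.5 0 of 10 passed and 2 had an unadjusted p under 0.05, where 0.0736% of 13583 genes were called, and edgeR and DESeq2 on whole reads also gave 0 calls with 2 unadjusted. At 12 h 0 of 5 passed, 1 unadjusted, where 0% of 13389 genes were called, and edgeR and DESeq2 gave 0 calls with 2 unadjusted each. At 24 h 0 of 3 passed, 0 unadjusted, with all 3 tools, where limma called 0.271% of 13300 genes.

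**Figure D3:**
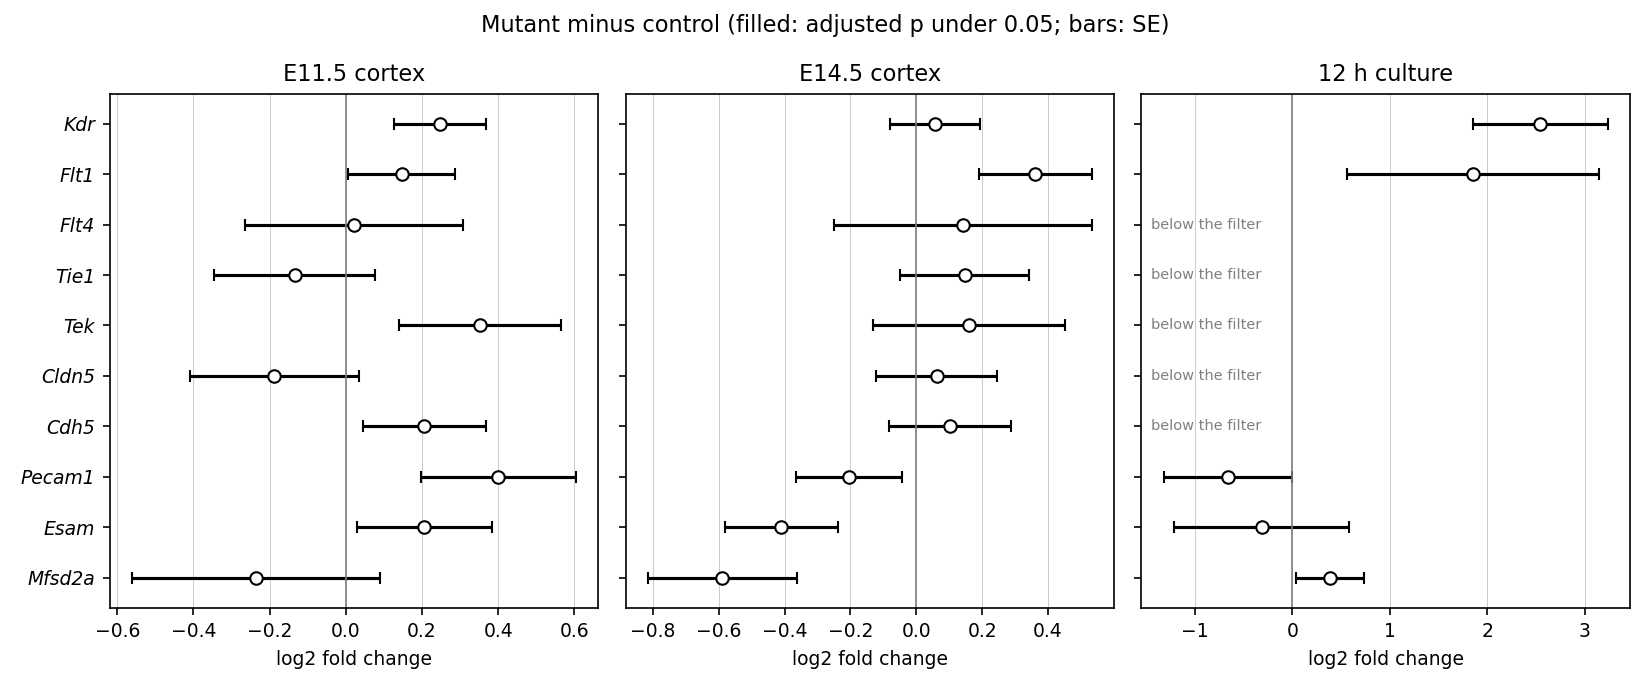
Mutant minus control difference of each gene in E11.5 cortex, E14.5 cortex and 12 h culture. The horizontal axis is the log2 fold change on a separate scale in each panel, bars are standard errors, and every point is open because no adjusted p was under 0.05. Kdr lies at 0.25, 0.06 and 2.54 in the 3 panels, and 5 genes were below the filter at 12 h.

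In E11.5 cortex the fitted differences lay between -0.24 (Mfsd2a) and 0.40 (Pecam1) on the log2 scale. All 3 mutants were above all 3 controls for Kdr (0.25, SE 0.12, adjusted p = 0.68) and Tek (0.35, SE 0.21, adjusted p = 0.72), which had 55.5, 44.6 and 47.6 normalized reads in mutants and 43.3, 35.1 and 36.5 in controls. That is 2 of 10 genes higher without overlap, against 7.16% of all genes tested. An exact permutation test of 3 against 3 cannot go below p = 0.1, which both reached. The liver list reached 203 in mutant A, 15.6 in mutant B and 836 in mutant C, but no more than 14.2 in an E11.5 control, and its part here was not tested.

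In E14.5 cortex 4 of 10 genes did not overlap, 1 higher and 3 lower, against 7.02% of all genes tested that were higher and 6.71% that were lower without overlap. Flt1 was higher in mutants, at 140, 162 and 138 normalized reads against 105, 106 and 133 in controls (0.36, SE 0.17, adjusted p = 0.55). Mfsd2a was lower in mutants (-0.59, SE 0.23, adjusted p = 0.51), as was Esam, at 125, 168 and 128 against 174, 205 and 177 (-0.41, SE 0.17, adjusted p = 0.52). Pecam1 was lower too, with 130, 126 and 119 against 161, 142 and 131 (-0.20, SE 0.16, adjusted p = 0.71). Each of the 4 reached p = 0.1 in the exact permutation test, and none passed the test over all genes. The liver list summed to 1002 and 1034 normalized reads in E14.5 controls 4 and 5, against 10.6 in control 3 and 6.62 to 14.7 in the 3 mutants, and Mfsd2a was highest in the same 2 controls. The Mfsd2a difference was -0.53 without control 4 and -0.51 without control 5. Each of these fits still held the other of the 2 controls, so neither bears on the liver transcripts. The part of the liver transcripts in these values was not tested.

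With both ages in a single fit, the genotype difference was 0.25 for Flt1 (SE 0.11, adjusted p = 0.50), -0.41 for Mfsd2a (SE 0.21, adjusted p = 0.60) and 0.15 for Kdr (SE 0.09, adjusted p = 0.64), where 0.139% of 13650 genes were called. Labels permuted within age gave exact p = 0.025 for Flt1, 0.13 for Mfsd2a and 0.085 for Kdr, each unadjusted for the 10 genes looked at. The change of the genotype difference with age was largest for Esam (-0.62, SE 0.25) and Pecam1 (-0.60, SE 0.26), both with adjusted p = 0.62, and 0 of the 10 passed with limma, 2 at an unadjusted p under 0.05, where 0% of all genes were called.

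Around these values, 20 of 27 other endothelial genes had a positive fitted difference over the cortices of both ages, with a median of 0.14 beside 0.09 for the 10 genes and 0.01 for all genes tested, and 0 were called. All 10 microglial genes tested had a positive difference (median 0.64), with Cx3cr1 called (0.92), and all 10 neuronal genes a negative one (median -0.35), with 1 called. The summed level of the microglial list was 365 to 566 in E11.5 controls, 591 to 781 in E11.5 mutants, 589 to 669 in E14.5 controls and 1010 to 1224 in E14.5 mutants. Pecam1 is a gene that microglia and other blood-derived cells can express, and the part of the microglial shift in its values was not tested.

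At 12 h in culture Kdr had the largest fitted genotype difference of the 5 genes tested. It had 42.9, 34.7 and 53.7 normalized reads in mutants 1, 2 and 6, from 44, 33 and 60 reads, and 11.01, 4.70 and 5.31 in controls 3, 4 and 5, from 7, 4 and 7 reads. Every mutant culture was above every control culture. Kdr was the only one of the 5 genes tested that did not overlap, where 5.09% of all genes were higher without overlap. The filter used the mean over both genotypes, and Kdr and Flt1 reached it only through high values in mutant cultures. Which genes were tested thus depended on the difference described, so no conclusion is drawn from the comparison with 5.09%. With limma the log2 fold change of Kdr was 2.54 (SE 0.69), with an unadjusted p = 0.0027 that ranked 33 of 13389 genes. Its adjusted p was 0.91, and the exact permutation test gave p = 0.1, the lowest the design allows.

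Per embryo, Kdr in the 12 h culture was 3.02%, 1.26% and 1.18% of the cortex level in controls 3, 4 and 5, whereas mutants 1, 2 and 6 kept 10.7%, 8.02% and 13.5%. The difference between genotypes in the change from cortex to culture was 2.49 on the log2 scale (SE 0.42, unadjusted p = 2.2e-05, adjusted p = 0.30) and 0 of 9 genes tested passed with limma, 2 unadjusted, where 0% of all genes were called. With the embryo as a replicate block the adjusted p was 0.17. On whole reads Kdr passed with edgeR (adjusted p = 0.033) and DESeq2 (adjusted p = 3.5e-05), each with 5 of the 9 genes at an unadjusted p under 0.05, and it passed with limma without 12 h control 3 (adjusted p = 0.014), while the adjusted p over all alternatives ran from 3.5e-05 to 0.99.

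The other VEGF receptors and Tek were uneven among the mutant cultures. Flt1 was at 22.4, 2.10 and 34.9 normalized reads in mutants 1, 2 and 6 and 1.57, 3.52 and 3.80 in controls (1.85, SE 1.29, adjusted p = 0.91). Tek had 0, 15 and 16 reads in mutants 1, 2 and 6 and 0, 1 and 0 in controls. The sum of the 8 genes without Kdr and Mfsd2a overlapped between the genotypes, at 50.7, 63.1 and 72.6 in mutants and 50.3, 64.6 and 25.8 in controls, and Cdh5 was at 0 to 2 reads in all 6 libraries. The further endothelial list summed to 316 to 374 in mutants and 315 to 425 in controls, which overlap.

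Other values moved at 12 h beside Kdr. The mural list summed to 103, 190 and 399 in mutants 6, 1 and 2 and to 59.8 to 116 in controls, which overlap. The smooth muscle genes Tagln and Acta2 were at 20.6 to 254 against 2.28 to 21.1 and at 9.85 to 45.2 against 0 to 6.29. The pericyte gene Rgs5 was at 3.58 to 10.5 against 5.87 to 11.01. Vtn, Notch3, Pdgfrb, Abcc9 and Cspg4 also overlapped between the genotypes. The microglial list summed to 8.06 to 29.2 in mutants and 31.7 to 61.3 in controls, lower without overlap. The liver list summed to 205 to 957 in mutants and 1.57 to 1475 in controls. Mutants 1 and 2 were female and the other 4 embryos male, and with sex as a term the Kdr difference was 2.86 (adjusted p = 0.12). The part of mural cells, microglia, liver transcripts and sex in the Kdr difference was not tested. Kdr lies at chr5:75932827-75978458 (GRCm38, reverse strand), 610 kb from Cep135 on the same chromosome. Of 17 genes tested within 1 Mb of Cep135, Kdr was the only gene without overlap at 12 h and 0 were called. Of all genes tested, 5.09% were higher without overlap, so 1 of 17 was near the background. Here too Kdr had reached the filter through its mutant cultures.

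At 24 h Kdr overlapped between the genotypes. Mutants 1, 2 and 6 had 13.6, 64.8 and 0 normalized reads, from 19, 64 and 0 reads, and controls 3, 4 and 5 had 5.46, 13.5 and 2.50, from 4, 8 and 2 reads. The log2 fold change was 0.52 (SE 1.22, adjusted p = 0.92). It was 2.17 without mutant 6 (adjusted p = 0.37), and the sign turned with a pseudocount of 0.1 (-0.38) and with sex as a term (-2.79). Mutant 6, the highest of the 12 h cultures, was the lowest of the 24 h cultures. The mural list at 24 h summed to 112 to 223 in mutants and 33.7 to 56.3 in controls, and the liver list to 120 to 423 and 1.69 to 6.83, both higher in mutants without overlap, and their part in the values was not tested. The change of the genotype difference from 12 h to 24 h was -2.03 (SE 1.58, unadjusted p = 0.22), and it did not pass, nor did that of Pecam1 or Mfsd2a, where 0% of all genes did with limma.

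**Figure D4:**
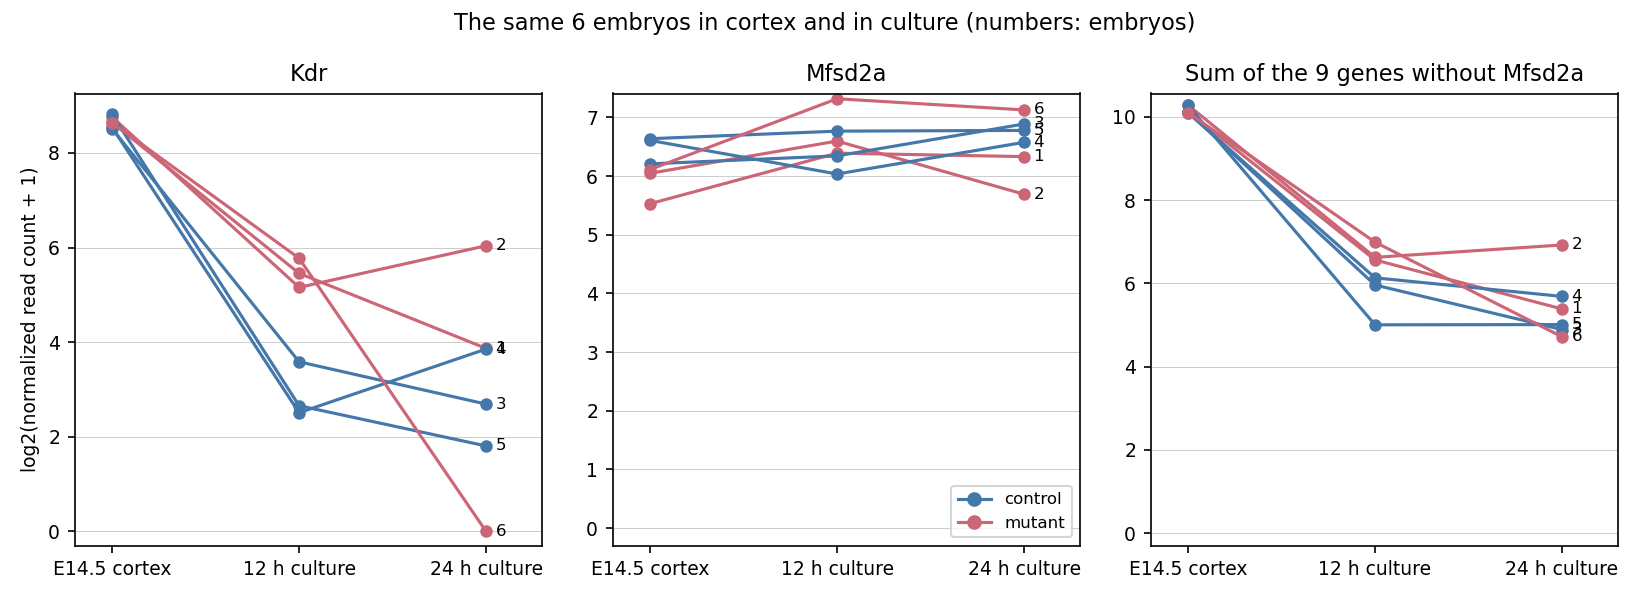
Kdr, Mfsd2a and the sum of the 9 genes without Mfsd2a in cortex and culture of the same 6 embryos. The vertical axis is log2(normalized read count + 1), each line is an embryo (numbered; blue, control; red, mutant). The 3 red lines lie above the 3 blue lines for Kdr at 12 h and not at 24 h, and Mfsd2a does not fall with the sum.

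The genes whose log2 values were most like the mean of the 10 over the 24 libraries were Col4a2 (Pearson r = 0.983), Stard8 (0.976), Col4a1 (0.970), Vcam1 (0.970) and Icam2 (0.969), among 13678 genes ranked. Col4a1 and Col4a2 encode the collagen of the vascular basement membrane. With the group means subtracted in the 12 cortices, they were Vtn (0.921), Srpk2 (0.905), Gm6710 (0.890), Abcg2 (0.883) and Cryz (0.875), of which Vtn and Abcg2 are pericyte and endothelial genes of brain vessels. The 10 genes themselves were only weakly alike on this scale: over their 45 pairs the median r was 0.20, and 31 pairs were above 0. The genes of a library share its size factor, and these correlations are descriptions.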

How the data were processed

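RNA was measured by QuantSeq 3′ sequencing in 24 mouse libraries, 3 for each of 8 groups set by genotype, age and culture time in the labels. The authors aligned reads with TopHat 2.0.10 and Bowtie 1.0.0 to GRCm38, counted them per gene by strand with HTSeq-count 0.6.1 on GENCODE annotation, and deposited counts divided by a size factor per library, a signal scale rather than raw counts. Mutant 6's cortex carries E11.5 in its description but E14.5 in its title and source, and was taken as E14.5. For mutants B and C the prefix of the title was used, which differs from that of the description.

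Genes averaging 10 or more normalized reads over the compared libraries were tested with limma 3.58.1 (intensity trend, log2 of the value + 1, two-sided, Benjamini-Hochberg over all genes, 0.05) in R 4.3.3, and single genes with exact two-sided permutation tests in Python 3.11.15. DESeq2 was the study's tool. Divided by its smallest value above 0, each library gave whole numbers in 100% of values (tolerance 0.01). A separate check, however, had accepted 23 of 24 libraries, without E11.5 control D. So edgeR 4.0.16 and DESeq2 1.42.0 were run as alternatives only where E11.5 control D is not involved. On simulated data for the E14.5 genotype comparison (13423 genes), 131 of 200 genes changed by a fold of 2 were recovered with 9 false calls, and (13430 genes) 190 of 200 at a fold of 4 with 7.

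Cortex and cultures of an E14.5 embryo share that animal by number in the labels. Same-embryo libraries correlated in their deviations from group means at -0.12 to 0.17 (12 h with cortex) and -0.04 to 0.19 (24 h with 12 h). Nothing in the labels names separate dissections or plates, so p-values measure the spread between these embryos' libraries. Positions are from GENCODE for GRCm38. The 10 genes and all lists were chosen with earlier results of these data known. Besides the 10, the text names up to 3 higher and 3 lower passing genes of each vascular list by smallest p, Vegfa, Angpt1, Angpt2, Cep135 and the 5 genes most like the 10; 1 gene that this rule names is not reported here. Plvap and Slco1c1 levels, Cx3cr1, Acta2, the other mural genes at 12 h and the Cldn5 to Cdh5 ratio were singled out after their values were seen.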

Additional observations from a re-analysis of the deposited data

Results flagged for a closer look

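The genotype difference of Kdr differed between E14.5 cortex and 12 h culture under 3 alternatives, by a test of the difference itself. The difference of differences was 2.68 on the log2 scale with edgeR on whole reads (adjusted p = 0.033), 2.71 with DESeq2 on whole reads (adjusted p = 3.5e-05) and 2.82 with limma without 12 h control 3 (adjusted p = 0.014). With limma on all libraries it was 2.49 (adjusted p = 0.30). The adjusted p ran from 3.5e-05 to 0.99 over all alternatives, and Kdr was higher in 3 of 3 mutant cultures of 12 h. Controls 3, 4 and 5 had only 7, 4 and 7 Kdr reads there. Mutants 1 and 2 were female and the controls male. At 24 h the genotypes overlapped, with mutant 6 at 0 reads.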

How the results depend on the processing

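The calls at 12 h against cortex (8 genes) kept their side of the threshold in every alternative run. So did the absence of calls between genotypes within a sample type. The alternatives were pseudocounts of 0.1 and 5, no filter, a mean of at least 50, and trimmed-mean and quantile rescaling. Others were edgeR and DESeq2 where E11.5 control D is not involved, sex, title prefix, all libraries in a single fit, and leaving out each library. The exceptions in count were no filter, which gave 9 calls at 12 h because Flt4 was then tested, the mean of at least 50, which left 5 calls at 12 h and 5 between the ages because fewer genes are tested, and the change of the Kdr genotype difference from cortex to 12 h, with 1 call by edgeR and 1 by DESeq2 and 0 to 1 calls when each library was left out. Between the ages, leaving out a library gave 5 to 6 calls, Pecam1 being the gene lost. Over all genes, DESeq2 called 64 between genotypes at E14.5, 9 at 12 h and 182 at 24 h, and 160 between 12 h and 24 h, where limma called 10, 0, 36 and 39. The embryo as a replicate block changed no call (8 calls at 12 h against cortex and 0 in the other 3 comparisons within embryos). The embryo block cannot be set between genotypes, and counting models were not run where E11.5 control D enters.

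Differences that changed sign were all short of the threshold, and the cause was not tested. With sex as a term, Cdh5 at E14.5 was -0.11, Kdr at 24 h -2.79 and Mfsd2a at 24 h 0.38 between genotypes. Kdr at 24 h was -0.38 with a pseudocount of 0.1, and Tie1 over both ages was -0.014 after trimmed-mean rescaling. Leaving out each library in turn, the genotype difference at E11.5 ran from -0.18 to 0.18 for Flt4, -0.27 to 0.053 for Tie1 and -0.46 to 0.19 for Mfsd2a. At E14.5 it ran from -0.11 to 0.37 for Flt4, -0.084 to 0.38 for Tek and -0.057 to 0.21 for Cldn5, and at 24 h from -1.04 to 0.32 for Pecam1. Over both ages it ran from -0.036 to 0.18 for Flt4, -0.045 to 0.11 for Tie1, -0.13 to 0.014 for Cldn5 and -0.034 to 0.17 for Pecam1. The age difference ran from -0.18 to 0.021 for Tek and -0.15 to 0.042 for Esam, and the difference from 12 h to 24 h from -0.13 to 0.19 for Mfsd2a.

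Depth limits the cultures most, where Flt4, Tie1, Tek, Cldn5 and Cdh5 held 0 to 16 reads a library and 3 reads mark the limit of a count of 0.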
